A study of Mus musculus with 8 samples.

Results

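The genes of the mTOR complexes and of their upstream TSC-RHEB switch were followed in RNA recovered with an antibody to DCP1A from the mouse ovary. The group was set by name and comprised 10 genes: Mtor, Rptor, Rictor, Mlst8, Tsc1, Tsc2, Rheb, Rps6kb1, Deptor and Akt1s1. Of these, 9 were found among the 23107 genes of the table and all 9 passed the low-count filter that left 14667 genes for testing. Rps6kb1, which encodes the S6 kinase phosphorylated by mTORC1, was not analysed here. The tissue was ovarian cortex of mice at postnatal day 8, and no source used here gives the strain, the genotype or whether animals were pooled. Input libraries (4) held RNA of the tissue before the antibody step, and RIP libraries (4) held RNA that came down with DCP1A, a co-activator of mRNA decapping found in cytoplasmic processing bodies. Which RNAs interact with this protein in primary oocytes was the stated question. Libraries from a non-immune antibody were not analysed here, and the level of non-specific recovery is therefore unknown.

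mTOR is a serine-threonine kinase that couples nutrients and growth factors to protein synthesis and autophagy, and it works in a pair of complexes. mTORC1 is built on the scaffold Raptor and is held back by PRAS40, mTORC2 is built on the scaffold Rictor, and mLST8 and the inhibitor DEPTOR occur in both. The tuberous sclerosis proteins TSC1 and TSC2 form a GTPase-activating complex that turns off RHEB, the small GTPase that switches mTORC1 on. In the mouse ovary, loss of Tsc1 or Tsc2 in oocytes is known to activate the whole pool of primordial follicles early, so the TSC complex is known as a brake on this activation.

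Each library held 13098154 to 25757620 estimated counts, and inputs 1 and 2 (13098154 and 13142790 counts) were shallower than inputs 3 and 4 (25757620 and 25030604). Levels are given below as CPM, counts scaled to a common library size with TMM factors, and changes as the log2 fold change of RIP over input with its approximate SE. No source says whether the libraries came from separate animals, so the p-values rest on a spread between libraries that may be technical alone. Oocyte markers summed to 2152 to 2908 CPM in input and 1923 to 2582 in RIP, with all 13 listed genes present. Granulosa cell markers summed to 1193 to 2880 and 1596 to 2576 CPM, and stroma and theca markers to 4274 to 6699 and 4402 to 8072 CPM. Of the granulosa list, Cyp19a1 lay under 1 CPM on average, as did Cyp17a1 of the theca list. Immune cell markers were low, at 9.77 to 18.6 CPM in input and 17.2 to 32.3 CPM in RIP, with Ptprc, Cd3e and Cd79a under 1 CPM on average, and what part they have in the values below was not tested. The libraries are of mixed tissue, so the cell type that the recovered RNA came from cannot be told. The fold changes compare RIP with input and do not measure expression per cell.

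Sequence upstream of a listed transcript start is shown for Mtor, Rptor and Tsc2 and for Rictor, the scaffold of the other complex. The first 3 are the genes whose RIP libraries all lay above all input libraries in TMM-scaled CPM. Each run is the 250 bases before the transcript start that the RefSeq promoter table lists (GRCm38.p6), 5′ to 3′ on the gene's strand. Capitals mark matches, on either strand, to the letters of 4 promoter motifs. The GC box, which Sp1 and related factors bind, was searched as GGGCGG with its reverse complement. The CCAAT box, which the factor NF-Y binds, was searched by those letters in the same way. The E-box, a palindrome bound by helix-loop-helix factors, was searched as CACGTG alone. The core bound by ETS factors was searched as CCGGAA with its reverse complement. The Mtor run lies at chr4:148448332-148448581 on the plus strand, the Rptor run at chr11:119602655-119602904 (plus), the Tsc2 run at chr17:24632628-24632877 (minus) and the Rictor run at chr15:6708131-6708380 (plus). The listed start of Tsc2 and that of Rictor lie inside the gene spans given below, so the last 49 bases of the Tsc2 run and the last 32 of the Rictor run, with the ETS core of each, are inside the annotated genes.
Mtor: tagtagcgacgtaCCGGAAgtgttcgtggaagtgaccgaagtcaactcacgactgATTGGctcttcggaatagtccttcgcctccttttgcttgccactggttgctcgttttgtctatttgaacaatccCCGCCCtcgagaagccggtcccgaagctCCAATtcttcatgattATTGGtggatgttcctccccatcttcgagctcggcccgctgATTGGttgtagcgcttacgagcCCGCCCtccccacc
Rptor: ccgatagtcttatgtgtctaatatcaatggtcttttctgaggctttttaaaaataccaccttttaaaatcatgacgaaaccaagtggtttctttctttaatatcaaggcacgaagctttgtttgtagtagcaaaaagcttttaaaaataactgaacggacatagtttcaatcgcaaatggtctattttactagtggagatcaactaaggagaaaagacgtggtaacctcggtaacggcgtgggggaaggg
Tsc2: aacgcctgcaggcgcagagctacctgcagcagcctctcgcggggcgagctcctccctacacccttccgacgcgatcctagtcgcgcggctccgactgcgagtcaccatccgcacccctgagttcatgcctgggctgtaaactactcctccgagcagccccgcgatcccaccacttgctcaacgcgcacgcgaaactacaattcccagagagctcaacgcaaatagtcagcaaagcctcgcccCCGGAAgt
Rictor: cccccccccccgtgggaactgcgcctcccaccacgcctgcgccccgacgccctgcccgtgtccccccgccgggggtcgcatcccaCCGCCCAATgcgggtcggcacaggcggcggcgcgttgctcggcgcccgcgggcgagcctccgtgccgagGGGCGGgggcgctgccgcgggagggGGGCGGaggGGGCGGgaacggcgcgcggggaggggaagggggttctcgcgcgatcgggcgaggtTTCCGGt

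The Mtor window held 4 CCAAT boxes, 2 GC boxes and 1 ETS core at 54.4% GC, while the Rptor window held none of these motifs at 37.6% GC. The Tsc2 window held 1 ETS core (62.8% GC), and the Rictor window held 4 GC boxes, 1 CCAAT box and 1 ETS core at 81.2% GC, with 1 GC box overlapping the CCAAT box. Windows were found for 9 of the 10 genes, Rps6kb1 included. Of the Tsc1 window 240 bases, and of the Akt1s1 window all 250, lie inside the gene span. Among these 9, 4 held a GC box, 2 a CCAAT box, 5 an ETS core and 1 (Rheb) an E-box. Of 32851 promoter windows of the same length, 32.7% held a GC box, 33.8% a CCAAT box, 12% an ETS core and 6.02% an E-box.

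None of the 9 genes passed the test between RIP and input. In TMM-scaled CPM, Rptor, Tsc2 and Mtor had every RIP library above every input library, which for Mtor did not hold by library size alone. By the quasi-likelihood test of edgeR, with p adjusted by Benjamini-Hochberg over all genes, 0 of 9 were called higher and 0 lower, where 0% of all tested genes were called higher and 0.0409% lower. DESeq2 and limma voom also called 0 of the 9. A block by replicate number, whose meaning the labels do not give, called 1 of them and is described in the closing section. At an unadjusted p under 0.05, edgeR gave 3 of the 9 as higher and 0 as lower, against 3.15% and 4.28% of all tested genes. Groups did not overlap for 3 of the 9, all of them higher in RIP, against 2.77% of all tested genes with every RIP library above and 2.52% with every RIP library below. Of the 9 genes 6 had a positive and 3 a negative fold change, and their median was 0.36, against -0.02 and 48.3% positive over all tested genes. These members were chosen with results of these data known, so the counts describe them and carry no test of their own.

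**Figure D1:**
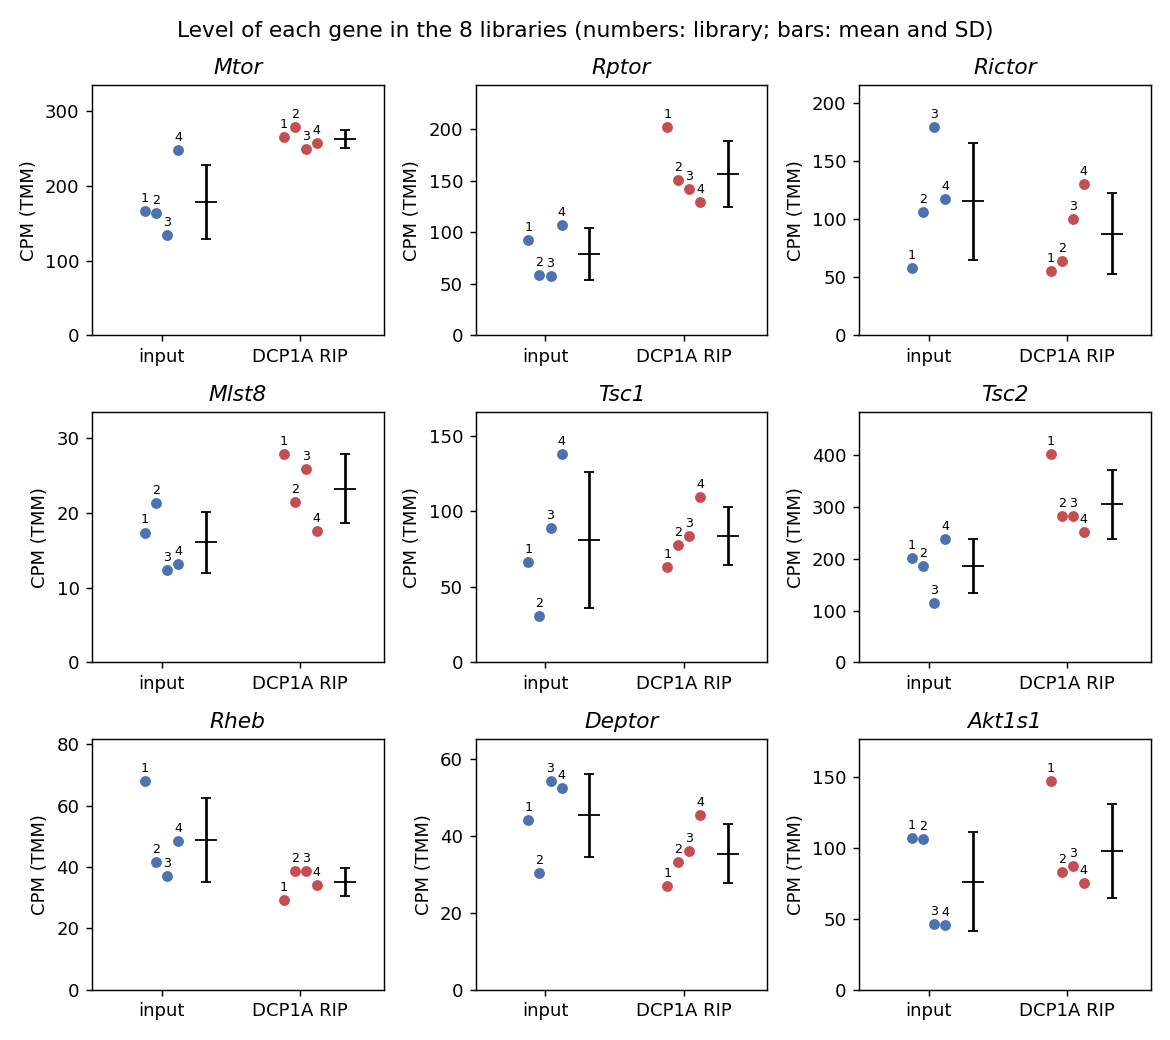
Level of each gene in the 4 input (blue) and 4 DCP1A RIP (red) libraries, in TMM-scaled CPM on linear axes that start at 0. Points are libraries with their numbers, and bars give the mean and SD; Mtor, Rptor and Tsc2 are the genes whose groups do not overlap.

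Mtor, which encodes the kinase shared by both complexes (chromosome 4, 148448582 to 148557685), stood at 166, 164, 134 and 248 CPM in inputs 1 to 4. It was at 264, 279, 249 and 258 CPM in RIP libraries 1 to 4. The RIP libraries lay close together and all above the inputs, but input 4 came within about 1 CPM of the lowest RIP library. The means were 178 ± 49 and 263 ± 13 CPM (SD, n = 4 each), a log2 fold change of 0.56 ± 0.24 (edgeR quasi-likelihood test, adjusted p = 0.627). Angptl7 lies within the Mtor span, with 369 counts over all 8 libraries.

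Rptor, which encodes Raptor, the subunit that brings substrates to mTORC1, spans 297 kb (chromosome 11, 119602905 to 119899591). Its input libraries 1 to 4 were at 92.4, 58.3, 57.4 and 107 CPM. Its RIP libraries 1 to 4 were at 202, 151, 142 and 129.7 CPM. All RIP libraries were above all inputs, with RIP 1 the highest and inputs 2 and 3 the lowest. The means were 78.8 ± 24.9 and 156 ± 32 CPM, and the log2 fold change of 0.99 ± 0.27 was the largest of the 9 and higher than that of 94.7% of the genes tested. Its edgeR adjusted p was 0.490, with an unadjusted p of 0.00224. The lncRNA gene Rptoros lies inside the span and was not analysed here.

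Akt1s1 encodes PRAS40, a substrate of AKT that inhibits mTORC1 (chromosome 7, 44849224 to 44855421). Inputs 1 to 4 stood at 106.6, 106.4, 46.3 and 45.3 CPM. RIP libraries 1 to 4 stood at 147, 82.9, 86.7 and 75.1 CPM. The shallower inputs 1 and 2 were above 3 of the 4 RIP libraries and the deeper inputs 3 and 4 were below all of them, so the groups overlapped. The log2 fold change was 0.36 ± 0.34 (edgeR adjusted p = 0.828). Libraries 1 and 2 alone gave 0.10 ± 0.32, and libraries 3 and 4 alone gave 0.82 ± 0.26. Without RIP 1 it was 0.10, and without input 3 or input 4 it was 0.19 and 0.18, while it was 0.57 without input 1 or input 2. How library depth bears on these levels was not tested.

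The subunits found in both complexes had fold changes of opposite sign. Mlst8, whose product is a WD-repeat protein bound to the kinase domain, was at 17.4, 21.3, 12.4 and 13.2 CPM in inputs 1 to 4. It was at 27.9, 21.4, 25.9 and 17.6 CPM in RIP libraries 1 to 4. RIP 4 lay below input 2, so the groups overlapped. The log2 fold change was 0.53 ± 0.34 (edgeR adjusted p = 0.747). Mlst8 had the lowest counts of the 9 genes, 207 to 553 per library, and 1922 bp of its 5565 bp span (chromosome 17, 24473550 to 24479114) overlaps Bricd5.

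Deptor, an inhibitor that binds mTOR directly, spans 147 kb (chromosome 15, 55112317 to 55259273). Its inputs 1 to 4 were at 44.2, 30.5, 54.4 and 52.6 CPM. Its RIP libraries 1 to 4 were at 27.0, 33.3, 36.1 and 45.5 CPM. Inputs 1 and 2 lay within the range of the RIP libraries, and inputs 3 and 4 were above all of them. The log2 fold change was -0.36 ± 0.29 (edgeR adjusted p = 0.801). Deptor overlaps the lncRNA gene Gm9920 over 1266 bp, and Gm9920 held 291 counts over all libraries.

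Rictor encodes the scaffold that defines mTORC2, the complex that phosphorylates AKT and SGK1 (chromosome 15, 6708349 to 6800401). Its inputs 1 to 4 were at 57.5, 106.1, 179.5 and 118 CPM. Its RIP libraries 1 to 4 were at 55.4, 64.2, 100.04 and 130.4 CPM. The groups overlapped, with input 3 above all other libraries and input 1 next to the lowest. The log2 fold change was -0.40 ± 0.34 (edgeR adjusted p = 0.811). It was -0.09 without input 3 and -0.23 without RIP 1, and it was -0.62 without input 1 and -0.65 without RIP 4. Input 3 also had the highest level of the nuclear lncRNA Malat1, 18696 CPM against 3152 to 7447 CPM in the other inputs, and whether this bears on Rictor was not tested.

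Of the TSC pair, Tsc2 lay higher in every RIP library and Tsc1 showed no fixed direction. Tsc2 encodes tuberin, the subunit with GTPase-activating activity towards RHEB (chromosome 17, 24595816 to 24632676). Its inputs 1 to 4 were at 202, 186, 115 and 238 CPM. Its RIP libraries 1 to 4 were at 402, 283, 283 and 252 CPM. The lowest RIP library, number 4, was above the highest input, number 4, and RIP 1 stood well above the rest. The means were 185 ± 52 and 305 ± 66 CPM, with a log2 fold change of 0.72 ± 0.26 (edgeR adjusted p = 0.622, unadjusted p = 0.0146). The end of Tsc2 overlaps Pkd1 by 699 bp, and Pkd1 held 60354 counts over all libraries. Since the use of strand in counting is not given, reads in that overlap cannot be assigned.

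Tsc1 encodes hamartin, which stabilises tuberin (chromosome 2, 28640993 to 28691172). Its inputs 1 to 4 were at 66.2, 30.8, 89.0 and 137.9 CPM. Its RIP libraries 1 to 4 were at 63.3, 77.8, 83.8 and 109.6 CPM. All RIP libraries lay within the range of the inputs, whose highest and lowest members differed more than for any other of the 9 genes on the log2 scale. The log2 fold change was 0.04 ± 0.36 (edgeR adjusted p = 0.983). Libraries 1 and 2 alone gave 0.54 ± 0.39, libraries 3 and 4 alone gave -0.23 ± 0.30, and the value without input 4 was 0.43. Its sign turned without input 1 (-0.04), input 2 (-0.23) or RIP 4 (-0.11).

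Rheb encodes the GTPase that activates mTORC1 (chromosome 5, 24802823 to 24842361). Its inputs 1 to 4 were at 68.0, 41.7, 37.2 and 48.3 CPM. Its RIP libraries 1 to 4 were at 29.1, 38.8, 38.6 and 34.0 CPM. Only input 3 lay within the RIP range, and input 1 was the highest library by a wide gap. The means were 48.8 ± 13.6 and 35.1 ± 4.6 CPM, with a log2 fold change of -0.47 ± 0.28, the lowest of the 9 (edgeR adjusted p = 0.738). Without input 1 it was -0.27.

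**Figure D2:**
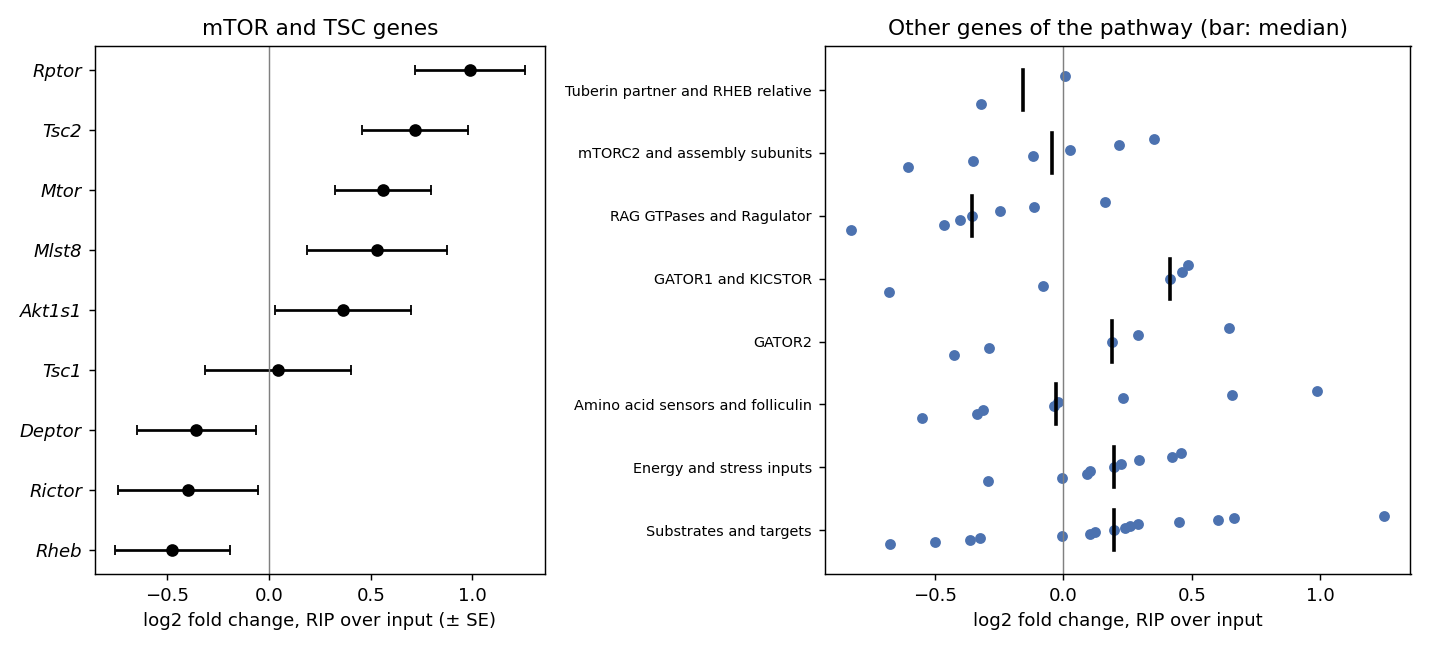
Left, log2 fold change of RIP over input with its SE for the 9 genes, from 0.99 for Rptor to -0.47 for Rheb. Right, log2 fold changes of 57 other genes of the pathway by role, with the median of each role as a bar; the medians run from -0.36 for the RAG GTPases and Ragulator to 0.42 for GATOR1 and KICSTOR.

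Ratios of gene pairs within a library do not depend on how libraries are scaled, and they are given as a description, with no test. The count of Rptor over that of Rictor, the scaffold of mTORC1 over the scaffold of mTORC2, had log2 values of 0.68, -0.86, -1.64 and -0.14 in inputs 1 to 4. In RIP libraries 1 to 4 the values were 1.87, 1.23, 0.51 and -0.01. The mean was -0.49 ± 1.00 in input and 0.90 ± 0.82 in RIP, but input 1 lay above RIP 3 and RIP 4. Deptor over Mtor was the one pair of the 5 whose groups did not overlap. Its log2 values were -1.91, -2.43, -1.31 and -2.24 in inputs and -3.29, -3.07, -2.79 and -2.50 in RIP libraries, all RIP values being lower. Mtor alone already had every RIP library above every input in TMM-scaled CPM, while the groups of Deptor alone overlapped. Were the libraries interchangeable, 2.86% of comparisons of 4 with 4 set in advance would show no overlap in either direction. Of all tested genes taken singly, 2.77% had every RIP library above and 2.52% every one below. The 5 pairs were chosen with earlier results of these data known, so these shares give no test of Deptor over Mtor. For Rptor over Mtor the means were -1.19 ± 0.26 and -0.77 ± 0.27, and input 1 (-0.85) was above RIP 2 and RIP 4. Tsc1 over Tsc2 ranged from -2.59 to -0.37 in input and from -2.67 to -1.20 in RIP. Akt1s1 over Rptor ranged from -1.24 to 0.87 in input and from -0.86 to -0.46 in RIP, a narrower range inside that of the inputs.

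**Figure D3:**
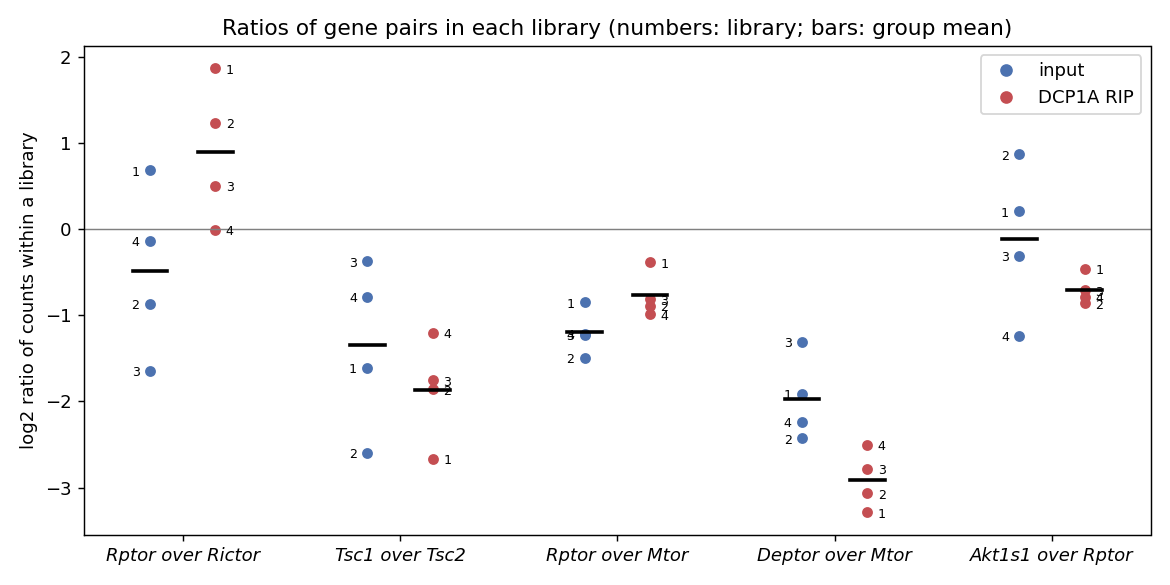
Log2 ratio of the counts of 5 gene pairs in each input (blue) and RIP (red) library, with library numbers and group means as bars. For Deptor over Mtor every RIP library (-3.29 to -2.50) lies below every input (-2.43 to -1.31), and the other pairs overlap.

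The spread between libraries was wider in input than in RIP for all 9 genes, a pattern shared by 72.6% of all tested genes. The median SD of log2 CPM over the 9 genes was 0.45 in input and 0.30 in RIP, against 0.64 and 0.44 over all tested genes. Tsc1 had the widest spread among inputs (0.91) and Mtor the narrowest among RIP libraries (0.07). Summed over the 9 genes, inputs held 726 to 1008 CPM and RIP libraries 1031 to 1218 CPM. Input 4, with the highest sum of the inputs, was 22 CPM below the lowest RIP library. The sum rests largely on Tsc2, Mtor and Rptor, which had the highest RIP means of the 9 genes (305, 263 and 156 CPM). These were the genes whose own groups did not overlap, and 3 of the 9 had negative fold changes. The sum therefore does not show that the 9 genes as a whole were higher in RIP.

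The 9 genes differed in which profiles over the 8 libraries they resembled. Pearson's r is given as a description, and since pooled libraries share the group difference, r of the deviations from the group means follows each value. Rptor and Tsc2 were the most alike (0.93, and 0.84 for deviations), and Mtor was most like Rptor (0.90 and 0.72). Mlst8 was most like Akt1s1 (0.86 and 0.88), and Deptor was most like Tsc1 (0.68 and 0.90). Mlst8 and Deptor ran opposite to each other (-0.92 and -0.92), as did Rictor and Akt1s1 (-0.77 and -0.74). Rheb resembled no other member closely, with Deptor the nearest by log2 CPM (0.41 and 0.13). By deviations the nearest to Rheb was Rptor (-0.39 and 0.37). All of these values share the libraries, their depth and their scaling. Among 7333 tested genes of at least median expression, the profiles most like that of Rptor were those of BC006779 (0.98, and 0.92 for deviations), Scube1, which encodes a secreted and membrane-bound protein with EGF-like repeats (0.98 and 0.91), and Plec, which encodes the cytolinker plectin (0.97 and 0.95).

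**Figure D4:**
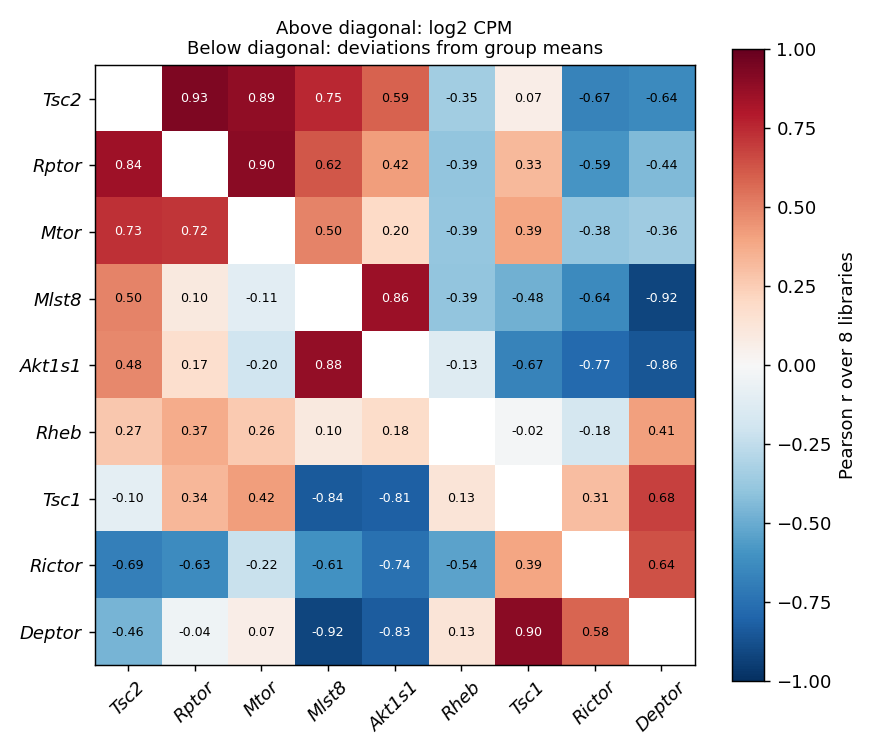
Pearson's r between the 9 genes over the 8 libraries, for log2 CPM above the diagonal and for deviations from the group means below it. Tsc2, Rptor and Mtor form a block of positive values (0.89 to 0.93 above the diagonal), and Mlst8 and Akt1s1 run opposite to Rictor, Deptor and Tsc1.

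By position, Mlst8 and Tsc2 lie on the same stretch of chromosome 17, separated by 117 kb, while Rictor and Deptor are both on chromosome 15 and far apart. Gene span did not sort the 9 genes by direction. The 3 spans over 100 kb were those of Mtor and Rptor, with positive fold changes, and Deptor, with a negative one. The median log2 fold change was -0.08 over 1889 tested genes with spans over 100 kb and 0.05 over 3281 with spans under 10 kb, the class of Mlst8 and Akt1s1.

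Of 61 other genes of the pathway, listed by role, 57 were tested and 0 passed edgeR's adjusted test in either direction. Over all tested genes, 0% passed as higher and 0.0409% as lower. At an unadjusted p under 0.05, 0 of the 57 were higher and 0 lower, against 3.15% and 4.28% of all tested genes, and DESeq2 and limma voom called 0. Their median log2 fold change was 0.09, with 31 positive and 26 negative, against -0.02 and 48.3% positive over all tested genes.

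Among the GATOR1 and KICSTOR genes, 3 of 5 had positive fold changes. The GATOR1 subunit Nprl2 had every RIP library above every input (34.5 ± 3.4 and 48.3 ± 4.7 CPM, log2 0.48 ± 0.26, edgeR adjusted p = 0.702). Of the 57 genes it was the only 1 with every RIP library above, and 0 had every one below. Over all tested genes these shares were 2.77% and 2.52%. Kptn, a KICSTOR subunit, was at -0.68 ± 0.51. Of the GATOR2 genes, which relieve GATOR1, Wdr24 was at 0.65 ± 0.43 and Seh1l, also a nuclear pore subunit, at -0.43 ± 0.25. The RAG GTPases and Ragulator bring mTORC1 to the lysosome, and 7 of the 10 genes listed for this role were tested. Of these 7, 6 had negative fold changes, against 51.7% of all tested genes, and their median was -0.36. Rragb (-0.83 ± 0.47) and Rragc (-0.40 ± 0.26) had the lowest p among them, and 0 passed.

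Among amino acid sensors, Gatsl2 and Gatsl3, which encode CASTOR proteins, were at 0.66 ± 0.32 and 0.99 ± 0.72 on the log2 scale. The mTORC2 and assembly genes ranged from -0.61 ± 0.64 for the subunit Prr5l to 0.35 ± 0.30 for Telo2, a chaperone partner of mTOR-family kinases. Tbc1d7, the third subunit of the TSC complex, was at -0.32 ± 0.43, and Rhebl1, a relative of Rheb, at 0.01 ± 0.41. Energy and stress inputs had a median of 0.20. The lowest p among them were those of Stk11, which encodes the LKB1 kinase upstream of AMPK (0.42 ± 0.26), and the AMPK subunit Prkab2 (0.29 ± 0.23). Among substrates and targets, the translational repressor Eif4ebp2 averaged 61.5 ± 16.1 CPM over inputs and 97.4 ± 42.9 CPM over RIP libraries (0.66 ± 0.31). Sgk1, a kinase activated by mTORC2, averaged 4.62 ± 3.95 and 11.04 ± 6.05 CPM (1.25 ± 0.66).

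Direction was kept for 8 of the 9 genes under all 24 alternatives of scaling, filter, test, block and left-out libraries, the exception being Tsc1. These alternatives reuse the same 8 libraries and are not independent of each other. For Rptor, Tsc2 and Mtor, whose groups did not overlap in TMM-scaled CPM, leaving libraries out could hardly turn the sign. The log2 fold change of Rptor ranged from 0.72 to 1.25, that of Tsc2 from 0.55 to 0.94 and that of Mtor from 0.40 to 0.77. Mlst8 ranged from 0.35 to 0.76, Deptor from -0.51 to -0.25, Rictor from -0.65 to -0.09 and Rheb from -0.69 to -0.19. Within libraries 1 and 2 the value was 1.22 ± 0.32 for Rptor, 0.81 ± 0.28 for Tsc2 and 0.72 ± 0.28 for Mtor. Within libraries 3 and 4 it was 0.72 ± 0.32 for Rptor, 0.60 ± 0.34 for Tsc2 and 0.40 ± 0.31 for Mtor.

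**Figure D5:**
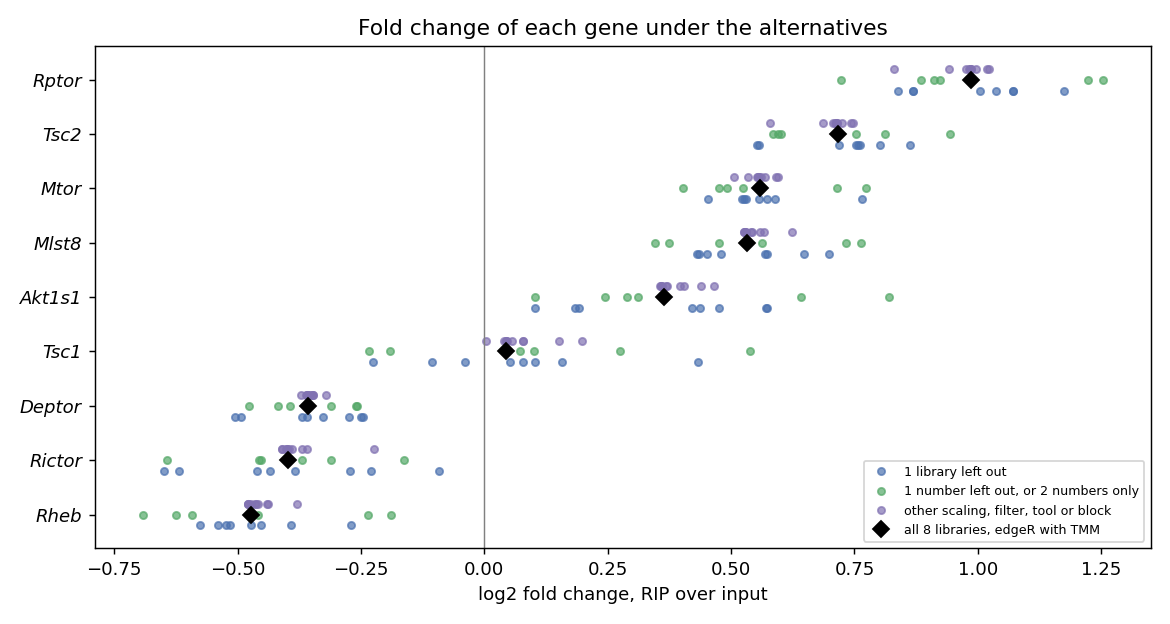
Log2 fold change of each gene with all 8 libraries (diamonds) and under the alternatives, coloured by kind. Rptor, Tsc2, Mtor, Mlst8 and Akt1s1 stay above 0 and Deptor, Rictor and Rheb below 0, while Tsc1 lies on both sides (-0.23 to 0.54).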

How the data were processed

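Per the labels' protocols, a Magna RIP kit served for the immunoprecipitation and a SMARTer stranded Pico kit for the libraries of total RNA. The authors' deposited table held estimated counts per gene, not scaled between libraries. The build was mm10 per the submitters' processing notes, and the aligner, counter, annotation and strand setting were not given in the sources used here. At most 1.85% of a library's values were not whole (tolerance 1e-09), and all were rounded before testing. Samples were grouped by their titles, 4 input and 4 RIP.

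RIP was compared with input over all genes in R 4.3.3 with edgeR 4.0.16 (TMM, filterByExpr with minimum count 10 and minimum total 15, robust quasi-likelihood fit, Benjamini-Hochberg threshold 0.05). The SE is the fold change divided by the root of F. Log2 CPM used a prior count of 2, and pair ratios added 0.5 to each count. The common biological coefficient of variation was 0.559. DESeq2 1.42.0, limma 3.58.1 and other scalings, filters, blocks and left-out libraries were alternatives. The test was also run on simulated counts drawn independently for each library, and its power for changes of the size seen here is not reported. Coordinates, spans and promoters came from RefSeq tables of GRCm38.p6, the patch release of mm10. The design had been written for counts and was kept for estimated counts. Every member is named; of each pathway role, genes past the threshold or otherwise the 2 with the lowest p are named, and the 3 profiles most like that of the member with the lowest p. 1 gene of the pathway list is not reported here and is left out of its counts. Members, lists and rules were chosen with earlier results of these data known. The labels do not say what a number marks, so the numbers were not treated as pairs in the main test. Same-numbered libraries deviated from their group means with r of 0.16, 0.09, 0.18 and 0.12, and a block by number was an alternative.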

Additional observations from a re-analysis of the deposited data

Results flagged for a closer look

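Akt1s1 was at 147 CPM in RIP 1, against 75.1 to 86.7 CPM in the other RIP libraries, and the gap took up 0.838 of the range of the group, above Dixon's 95% critical value for 4 libraries. Of 28 groups examined in this way (9 genes and 5 pair ratios in each of input and RIP) this was the only 1 past that value, and chance alone marks about 1 group in 20. RIP 1 also had the highest level of Rptor, Tsc2 and Mlst8 among the RIP libraries. The cause was not tested.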

How the results depend on the processing

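With the replicate number as a block, edgeR called 55 genes (13 higher, 42 lower) against 6 without it, among them 1 of the 9 genes, Rptor (log2 1.02 ± 0.23, adjusted p = 0.0409) and 0 of the 57 other pathway genes. Same-numbered libraries deviated from their group means with r of 0.16, 0.09, 0.18 and 0.12, all positive, and 1 of 4 inputs resembled its own number best. Input 2 was most like RIP 1 (0.15), input 3 most like RIP 4 (0.27) and input 4 most like RIP 3 (0.14). The labels do not say what a number marks, and whether the block describes the libraries better was not tested. With libraries 1 and 2 against 3 and 4 as a block, chosen after seeing the data, 55 genes passed (12 higher, 43 lower), 0 of the 9 and 0 of the 57, with Rptor at an adjusted p of 0.0644. DESeq2 called 56 genes (13 higher, 43 lower), limma voom with sample weights 20 and libraries 1 and 2 alone 27, and leaving out 1 library or both of a number gave 1 to 17, with 15 without input 3 and 17 without RIP 1. Without number 1, 2 or 4 the counts were 2, 1 and 1. The other scalings and filters, libraries 3 and 4 alone and a threshold of 0.1 gave 4 to 7. No member passed in any of these apart from Rptor with the replicate block. The value of Tsc1 ranged from -0.23 to 0.43 without 1 library and turned negative without input 1 (-0.04), input 2 (-0.23) or RIP 4 (-0.11), without number 2 (-0.19) and within libraries 3 and 4 (-0.23); the cause was not tested. The pair ratios kept their sign with 5 added to each count and without each library, Rptor over Rictor differing between RIP and input by 1.01 to 1.78 and Tsc1 over Tsc2 by -0.95 to -0.21. Mlst8, with 207 to 553 counts a library, had the least depth of the 9.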
